A study of Mus musculus with 8 samples.

Results

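The quiescent stellate cell markers are 10 genes, Ngfr, Reln, Gfap, Hgf, Colec11, Ecm1, Rgs5, Cygb, Vipr1 and Adamtsl2, chosen by name as genes known to mark hepatic stellate cells before or early in their activation. All 10 of the 40840 genes in the tables were found, and all 10 were among the 19963 with enough counts to be tested. RNA was sequenced from primary myofibroblastic hepatic stellate cells (pMF-HSCs) of male C57BL/6J mice aged 15 to 18 weeks. The cells were sorted by retinol autofluorescence, left to activate on plastic for 7 days, and then given vehicle (DMSO, the control group, n = 4) or 50 µM OSMI-1 (the OGTi group, n = 4) for 24 h. OSMI-1 blocks OGT, which attaches single O-GlcNAc sugars to proteins inside the cell. The replicates were independent experiments, and control and OGTi samples of one number were treated as pairs. No library of freshly isolated, quiescent cells was analysed here, so the values below compare treated with untreated myofibroblasts and not myofibroblasts with quiescent cells.

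In healthy liver, stellate cells sit between hepatocytes and sinusoidal endothelium, store retinyl esters in lipid droplets and keep close contact with nerve endings and vessels. They carry features of neural cells, such as the intermediate filament protein GFAP and the neurotrophin receptor p75, and of pericytes. They are also a main hepatic source of hepatocyte growth factor. On plastic or in injured liver they lose droplets, gain contractile fibres and secrete collagen, and markers of the quiescent state generally decline. Losing and regaining such markers is one way in which the activation state of these cells is followed.

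OGTi changed 2 of the 10 markers, and in opposite directions. Hgf, encoding hepatocyte growth factor, fell 4.36-fold, and Vipr1, encoding a receptor for vasoactive intestinal peptide, rose 2.37-fold (edgeR quasi-likelihood test with the replicate number as a block, adjusted p of 0.00156 and 0.0272). The call of Hgf held in all 13 alternative ways of processing, and that of Vipr1 in 7. In bulk RNA, fewer cells that make a transcript and less of it per cell cannot be told apart. The other 8 did not pass the threshold, an adjusted p of at most 0.05 over all genes tested. Among all genes tested, 18.4% were called changed, 8.13% higher and 10.2% lower, so that the share of markers called was close to that of genes in general. The median log2 fold change of the 10 markers was 0.18, against 0.01 over all genes tested. That median was -0.017 when libraries were scaled by their totals alone and 0.31 with upper-quartile scaling, choices that moved the median of all genes to -0.19 and 0.13. The sign of the markers' median thus differed between scalings.

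Libraries held between 30068876 and 37372420 expected counts, of which the 10 markers together took between 61278 and 103018, mostly Ecm1. The OGTi libraries also differed by gene length. Relative to the other OGTi libraries, OGTi replicate 1 lay at a median of 0.61 on the log2 scale for the shortest of 5 length classes and at -0.63 and -0.49 for the 2 longest, whereas the corresponding control library lay between 0.00 and 0.09. OGTi replicate 4 lay at -0.39 for the shortest class and 0.16 for the longest. OGTi replicate 4 had counts in 23746 genes, and the remaining OGTi libraries in 19422 to 19682.

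The promoters of the 2 markers called in the edgeR fit with the block are shown. Each is the stretch from 250 bases before to 50 bases after the start of the canonical transcript in GENCODE vM39 on GRCm39, the mouse build that the labels name. Capitals mark matches, on either strand, to the letters AGGTCA (a hexamer bound by nuclear receptors) or GGGCGG (a GC box, bound by SP and KLF factors). The first sequence lies on the plus strand at chr5:16758534-16758833 and the second on the plus strand at chr9:121471525-121471824.
Hgf: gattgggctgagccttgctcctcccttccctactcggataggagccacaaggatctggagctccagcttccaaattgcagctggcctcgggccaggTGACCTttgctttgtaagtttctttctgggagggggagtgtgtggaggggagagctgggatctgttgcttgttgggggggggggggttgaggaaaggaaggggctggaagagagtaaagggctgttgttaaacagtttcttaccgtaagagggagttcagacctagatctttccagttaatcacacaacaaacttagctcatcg
Vipr1: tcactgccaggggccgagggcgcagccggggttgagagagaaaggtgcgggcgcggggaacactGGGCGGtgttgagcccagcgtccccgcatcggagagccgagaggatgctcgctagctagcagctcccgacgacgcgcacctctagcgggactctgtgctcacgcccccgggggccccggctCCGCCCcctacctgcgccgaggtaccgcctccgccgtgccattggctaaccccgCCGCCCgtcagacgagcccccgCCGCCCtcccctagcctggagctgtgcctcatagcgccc

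The Hgf promoter held 1 nuclear receptor hexamer and no GC box, and its GC content was 53.0%. The Vipr1 promoter held 4 GC boxes and no hexamer, with a GC content of 72.7%. Over 21738 promoters of protein-coding genes, cut in the same way, the median GC content was 54.3%, 42.5% held a GC box and 15.1% a hexamer. Of the 10 markers, 5 held a GC box (Ngfr, Reln, Ecm1, Vipr1 and Adamtsl2) and 3 a hexamer (Gfap, Hgf and Adamtsl2). The letters GGAATG, which TEAD factors bind, were in none of the 10 windows and in 14.0% of all promoters. The letters TGANTCA, bound by AP-1, were in 1 of the 10 (Ecm1) and in 7.15% of all. These matches describe the windows only, and Cygb, Rgs5 and Colec11 held none of the 4 motifs.

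The markers differed widely in level. On the TPM scale, which corrects for transcript length and depth, Ecm1 stood far above the rest with 1684 ± 266 TPM in control (SD, n = 4), at the 99.6th percentile of the genes tested. Hgf followed with 52.4 ± 23.6 TPM. Colec11 and Rgs5 had 19.9 ± 13.5 and 19.3 ± 4.35 TPM. Below them came Reln (11.3 ± 5.17), Ngfr (8.6 ± 4.98), Cygb (5.86 ± 2.12) and Adamtsl2 (5.23 ± 6.53 TPM). Vipr1, at 0.87 ± 0.378 TPM, and Gfap, at 0.133 ± 0.0759 TPM, were the lowest. Only 2 of the 9 steps in this order separated all control libraries, the one from Ecm1 to Hgf and the one from Vipr1 to Gfap, while neighbours at the other 7 overlapped. In OGTi, Hgf dropped from the second to the fifth place and Ngfr went from the sixth to the third, at 22.8 ± 19.8 TPM.

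**Figure D1:**
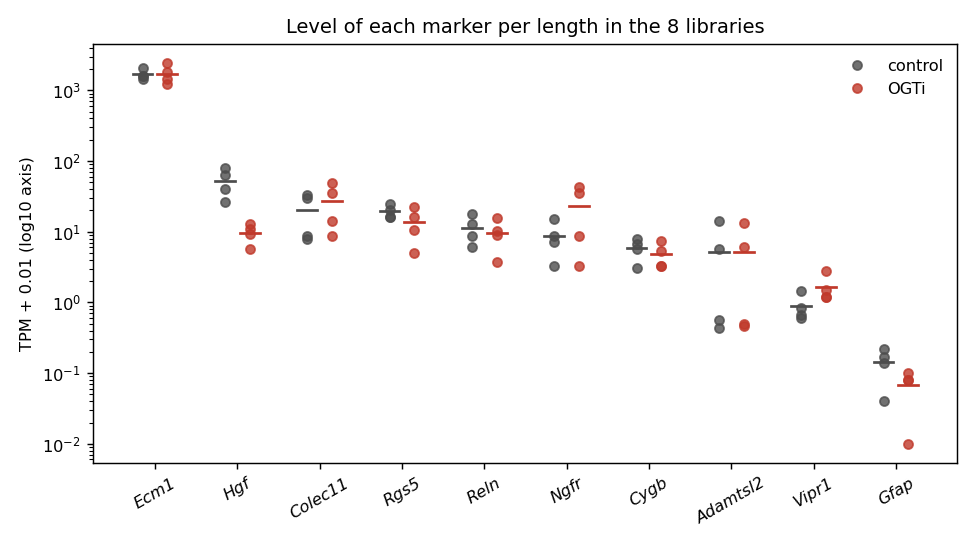
TPM of each marker in the 4 control (grey) and 4 OGTi (red) libraries, with 0.01 added and a log10 axis; each dot is a library and each bar a group mean. Ecm1 lies between 1211 and 2432 TPM, Gfap at or under 0.21 TPM in every library, and the OGTi values of Hgf lie below all its control values.

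Hgf (chromosome 5, 16758041 to 16828178, as all positions here on GRCm39) is a secreted ligand that drives hepatocyte growth through the receptor MET. Control replicates 1 to 4 had 2471, 1571, 3747 and 4887 scaled counts, that is, counts corrected for library size with TMM factors and set to a common total. OGTi replicates 1 to 4 had 466, 809.6, 699.6 and 768. Each OGTi library lay below each control library, and the spread between cultures, 45.8% of the mean in control, was 22.4% in OGTi. The means were 3169 ± 1452 and 686 ± 153 (SD, n = 4). The fitted log2 change was -2.13 ± 0.30 (± here and for all log2 fold changes is the standard error), with a 95% interval of -2.80 to -1.45. The pairs gave -2.41, -0.96, -2.42 and -2.67 on the log2 scale, the smallest drop being that of pair 2, whose control had the lowest level. The gene was called lower in all 13 alternatives, with log2 fold changes from -2.47 to -1.92. It was the 1 marker of 10 that was lower in all 4 pairs, a pattern shown by 21.5% of genes tested, and the 1 with OGTi wholly below control, as were 12.0% of genes tested.

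Of 9 genes related to HGF signalling, 1 was called higher and 1 lower. Met itself was scarce in these cells, with 0.72 to 1.05 TPM in control and 0.22 to 1.36 in OGTi, and had a log2 fold change of -0.05 ± 0.41 (adjusted p 0.95). St14, the membrane protease matriptase, fell (-0.99, adjusted p 0.0405), and Mst1, an HGF-like ligand, rose (0.90, adjusted p 0.0401). Neither call was firm. They held in 7 and 6 of the 13 alternatives, with adjusted p of up to 0.181 and 0.149.

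Reln (chromosome 5, 22089452 to 22549700) encodes reelin, a large secreted glycoprotein best known from neuronal migration. It had 2042, 1458, 2919 and 4201 scaled counts in control replicates 1 to 4 and 1279, 2294, 3071 and 4452 in OGTi replicates 1 to 4. The groups overlapped almost fully, and in both of them replicate 4 was the highest and replicate 3 the next. The log2 fold change was 0.04 ± 0.24, with a 95% interval of -0.51 to 0.58 and an adjusted p of 0.942. The pairs gave -0.67, 0.65, 0.07 and 0.08 on the log2 scale, with pairs 1 and 2 apart in sign. Reln has the longest transcript of the 10 at 11699 bases, and with the length trend of each library removed its log2 fold change was 0.21 (adjusted p 0.391). Of 8 genes on its receptor and adaptor side, 1 changed. Itga3, an integrin chain that binds reelin and laminins, fell (-1.89 ± 0.25, adjusted p 0.00114), in each of the 13 alternatives. The reelin receptors Lrp8 and Vldlr, at 0.94 to 1.27 and 0.3 to 2.07 TPM in control, had log2 fold changes of 0.61 ± 0.31 and 0.85 ± 0.63 and did not pass (adjusted p 0.208 and 0.402). Lrp8 fell in pair 1 alone (-0.44), and without that pair edgeR called it higher (adjusted p 0.0396), as in no other alternative. Dab1, their adaptor, was at most 0.03 TPM in any library.

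**Figure D2:**
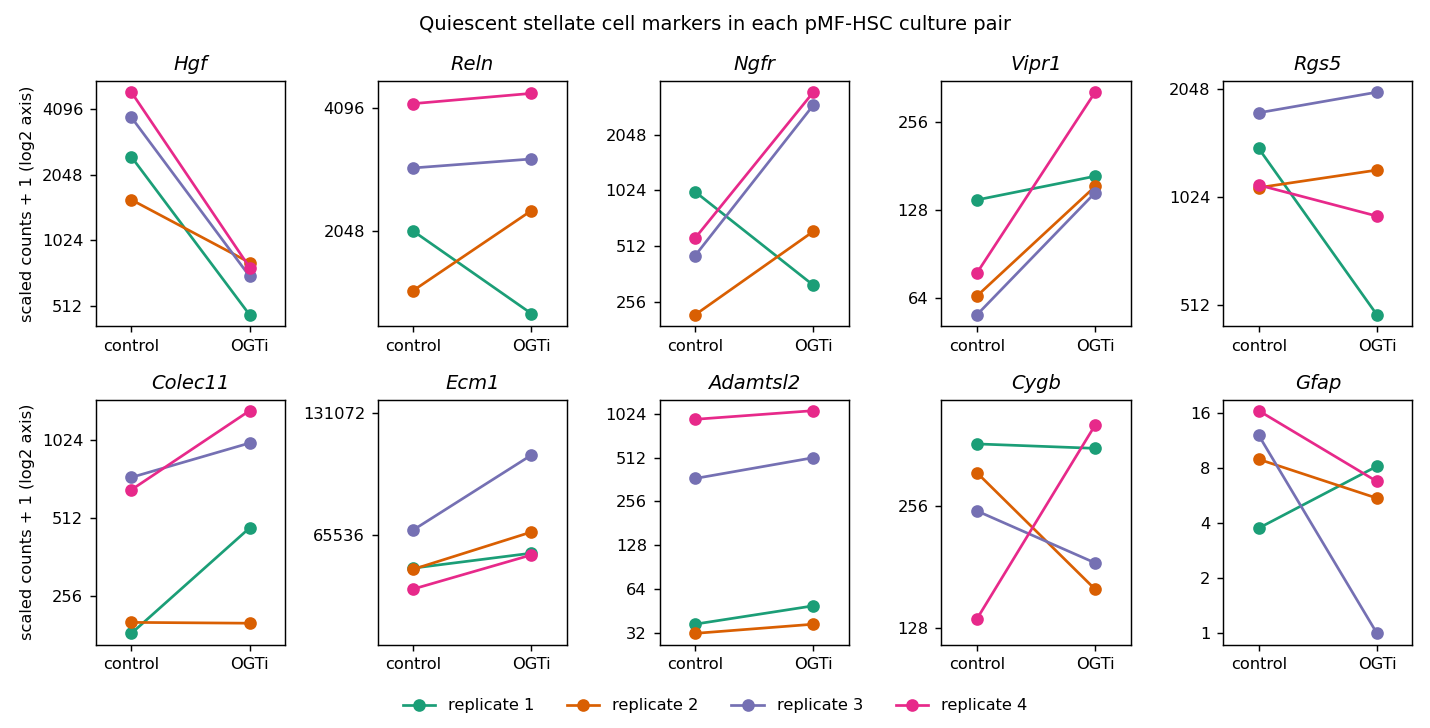
Scaled counts of each marker, with 1 added and a log2 axis, in control and OGTi; each line joins the 2 libraries of a replicate number. All 4 lines fall for Hgf and rise for Vipr1, the lines of Adamtsl2 run nearly level, those of replicates 1 and 2 close together and far below those of replicates 3 and 4, and that of replicate 1 crosses the others for Ngfr.

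Ngfr (chromosome 11, 95459638 to 95478561) encodes p75, the low-affinity receptor for all neurotrophins. Its values were 1007, 218, 455 and 566 scaled counts in control replicates 1 to 4 and 315, 615, 2945 and 3459.7 in OGTi replicates 1 to 4. OGTi replicates 3 and 4 lay far above every control library, whereas replicates 1 and 2 lay within the control range. The pairs gave -1.67, 1.49, 2.69 and 2.61 on the log2 scale, so that 3 went up and 1 went down. The log2 fold change of 1.46 ± 0.66 was larger than that of Vipr1 but did not pass (95% interval -0.0049 to 2.92, adjusted p 0.158). This outcome rested on pair 1. Without it the log2 fold change was 2.28 with an adjusted p of 0.00471, while without pairs 2, 3 or 4 the adjusted p lay between 0.31 and 0.472. OGTi replicate 1 is the library with low values for long genes, and Ngfr, at 3409 bases, had a log2 fold change of 1.60 and an adjusted p of 0.128 with that trend removed. The gene also passed with DESeq2 (adjusted p 0.0329) and in edgeR with no filter on low counts (adjusted p 0.00363).

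Other genes of the neurotrophin system were examined beside Ngfr. Bdnf, a ligand of this receptor, was well expressed, at 51 to 79.1 TPM in control and 68.2 to 87.1 in OGTi, and did not pass (0.48 ± 0.22, adjusted p 0.166). Ntrk2, the high-affinity receptor for the product of Bdnf, was low, at 0.01 to 0.11 TPM in control and 0.01 to 0.67 in OGTi, and did not pass either (1.40 ± 0.82, adjusted p 0.276).

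Vipr1 (chromosome 9, 121471775 to 121502020) encodes VPAC1, a receptor for vasoactive intestinal peptide and PACAP that raises cyclic AMP. It was low, with 138, 64.2, 55.2 and 77.1 scaled counts in control replicates 1 to 4, and higher in OGTi, with 166, 153, 146 and 322 in replicates 1 to 4. All OGTi libraries lay above all control ones on this scale, by a narrow margin at control replicate 1 and OGTi replicate 3, and OGTi replicate 4 stood apart at the top. On the TPM scale the groups overlapped, with 0.59 to 1.42 TPM in control and 1.18 to 2.76 in OGTi. The means were 83.5 ± 37.1 and 197 ± 83.8 scaled counts (SD, n = 4). The fitted log2 change was 1.24 ± 0.33, with a 95% interval of 0.50 to 1.98 and an adjusted p of 0.0272. The 4 pairs gave 0.27, 1.25, 1.39 and 2.05. Vipr1 was the 1 marker of 10 with OGTi wholly above control, as were 11.5% of genes tested. It was called in 7 of 13 alternatives. The call was lost without the block (adjusted p 0.0527), with limma on TPM (log2 fold change 0.49 with 1 added and 0.84 with 0.1 added) and without pair 2, 3 or 4 (adjusted p 0.071, 0.104 and 0.129), with no change of sign.

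Among 11 genes of the same receptor system, 3 were called lower and 1 higher. Adcyap1r1, the PACAP-selective receptor, fell (1.54 to 5.43 TPM in control and 0.53 to 1.23 in OGTi, log2 fold change -1.66 ± 0.37, adjusted p 0.0118), the opposite direction to Vipr1. Adcy6, an adenylyl cyclase, and Ramp2, a receptor partner, also fell (-1.68 and -1.60, adjusted p 0.0039 and 0.011). The call of Adcy6 held in all 13 alternatives, whereas Adcyap1r1 was lost without pair 3 or 4 (adjusted p up to 0.074) and Ramp2 without the block and without pair 3 or 4 (up to 0.202). Gnas, the stimulatory G protein alpha subunit, rose by 0.70, just inside the threshold (adjusted p 0.0497), and held in 6 of 13 alternatives. Of the ligands, Vip was listed at 0 TPM in all 8 libraries and Adcyap1 was at most 0.01 TPM. Vipr2, the second receptor for this peptide, was at most 0.18 TPM (log2 fold change 1.55 ± 0.89, adjusted p 0.264).

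Rgs5 (chromosome 1, 169483036 to 169524887) encodes a GTPase-activating protein that shortens signalling through Gq and Gi and is a classical pericyte marker. It had 1398, 1086, 1759 and 1104 scaled counts in control replicates 1 to 4 and 478, 1216, 2008 and 904 in OGTi replicates 1 to 4. The OGTi values spanned the control range on both sides. Only pair 1 moved strongly, by -1.55 on the log2 scale, against 0.16, 0.19 and -0.29 in the others. The log2 fold change was -0.36 ± 0.30 (95% interval -1.03 to 0.32, adjusted p 0.472), and it was 0.02 without pair 1. Pair 1 holds the OGTi library with low values for long genes, and with the length trend removed the log2 fold change of Rgs5 was -0.16 (adjusted p 0.69). Other members of the RGS family changed in both directions. Of 11 examined, 9 were tested, 2 rose (Rgs2, 2.31 ± 0.38, adjusted p 0.003, and Rgs10, 0.94 ± 0.28, adjusted p 0.0397) and 3 fell (Rgs3, Rgs12 and Rgs17, -0.92, -0.67 and -1.54, adjusted p 0.0271, 0.0455 and 0.041). Of these 5, Rgs2 was called in every alternative, whereas the others held in 6 to 8 of 13.

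**Figure D3:**
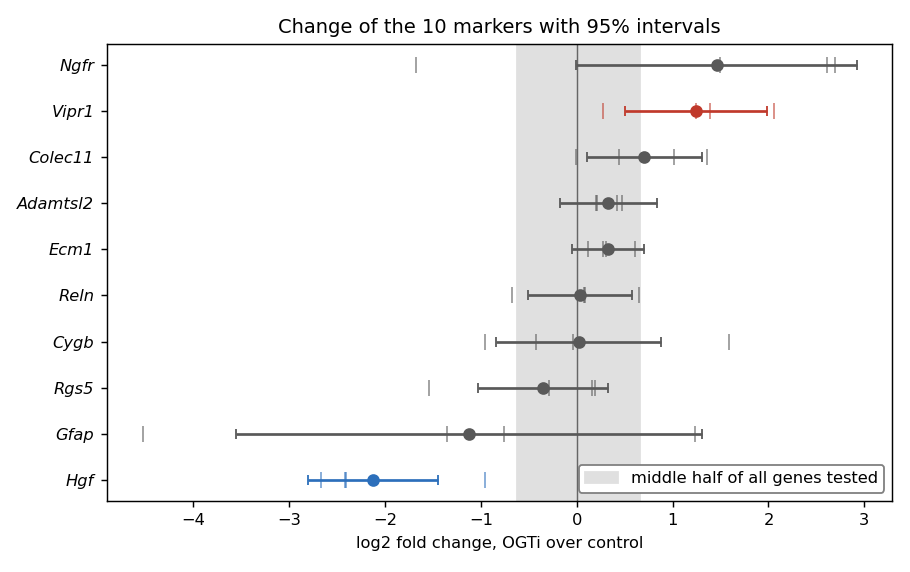
Log2 fold change of each marker with its 95% interval (dot and bar) and the 4 single pairs (ticks); red is called higher, blue called lower and grey not called, and the band spans the middle 50% of all genes tested, -0.62 to 0.66. Hgf and Vipr1 are the coloured genes, and the ticks of Ngfr, Cygb and Gfap lie on both sides of 0.

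Ecm1 (chromosome 3, 95640761 to 95646943) encodes extracellular matrix protein 1, a secreted glycoprotein that in liver holds latent TGF-beta inactive. It was among the most abundant transcripts, with 54370.2, 54021, 67475 and 48304 scaled counts in control replicates 1 to 4 and 59175, 66706, 103118 and 58596 in OGTi replicates 1 to 4. The spread in control was 14.5% of the mean, the smallest of the 10 markers and below the median of 19.5% over the 11948 genes with a mean of at least 50 counts. All 4 pairs were higher in OGTi, by 0.122 to 0.61 on the log2 scale, but the groups overlapped and the gene did not pass. Its log2 fold change was 0.33 ± 0.17, with a 95% interval of -0.05 to 0.70 and an adjusted p of 0.212, and it was 0.13 with library totals alone.

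Adamtsl2 (chromosome 2, 26949885 to 26998993) encodes a secreted ADAMTS-like glycoprotein of fibrillin microfibrils. It was the marker that varied most between cultures. Control replicates 1 to 4 had 35.8, 30.8, 367 and 938 scaled counts, and OGTi replicates 1 to 4 had 48.1, 35.7, 511 and 1076. Replicates 3 and 4 were far above replicates 1 and 2 in both groups, so that the highest library was 30.5 times the lowest in control and 30.1 times in OGTi. A coefficient of variation as large as that of Adamtsl2 in control, 124%, was rare, at the 99.7th percentile of the 11948 genes. Within pairs the gene moved little, by 0.42, 0.21, 0.48 and 0.20 on the log2 scale, for a log2 fold change of 0.33 ± 0.23 (95% interval -0.18 to 0.84, adjusted p 0.363). With Ecm1 and Vipr1 it was 1 of 3 markers higher in all 4 pairs, a pattern seen in 19.4% of genes tested. The labels name no batch that sets replicates 3 and 4 apart.

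Several genes around latent TGF-beta and microfibrils fell in OGTi while Ecm1 and Adamtsl2 did not pass. Of 22 such genes, 6 were called lower with edgeR, beside 10.2% of all genes tested. The median log2 fold change of the 22 was -0.79, against 0.01 over all genes tested. These genes were listed with earlier results of these data known, so the counts are a description only. Tgfb3, the most abundant of the TGF-beta ligands here, fell (112 to 241 TPM in control and 16.3 to 105 in OGTi, -1.55 ± 0.24, adjusted p 0.00234). Adamts10, Ltbp2 and Tgfb2 fell as well (-1.54, -1.50 and -1.37, adjusted p 0.00438, 0.00668 and 0.00911), and the remaining 2 called were Fbn1, encoding fibrillin-1, and Ltbp1, which tethers latent TGF-beta (called in 9 and 10 of 13 alternatives). With no replicate block, which left 2 of the 22 called, Tgfb3 and Ltbp2 did not pass, and without replicate 3 or replicate 4 there were 4 called.

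Colec11 (chromosome 12, 28644168 to 28673488) encodes collectin-11, a soluble lectin that starts the lectin pathway of complement. Control replicates 1 to 4 had 183, 201, 734 and 657 scaled counts and OGTi replicates 1 to 4 had 468, 199.9, 996 and 1329. As with Adamtsl2, replicates 3 and 4 were the highest in each group. The pairs gave 1.36, -0.01, 0.44 and 1.02 on the log2 scale, that is, 3 positive values and 1 near 0. The log2 fold change was 0.70 ± 0.27, and although its own 95% interval of 0.10 to 1.31 did not include 0, the adjusted p over all genes was 0.102. With DESeq2 the gene passed (adjusted p 0.0468), and it did not in the other 12 alternatives. Colec11 has the shortest transcript of the 10, at 1317 bases, and pair 1 gave the highest value. Without that pair the log2 fold change was 0.49, and with the length trend removed it was 0.67. Of 8 related lectin pathway genes, 5 were tested and 1 was called. Fcna, a ficolin, rose by 0.64 ± 0.19 (adjusted p 0.0422), a call that held in 5 of 13 alternatives. Masp1, the protease that works with collectins, was abundant (1104 to 1549.9 TPM in control), stood at 155 TPM in the first OGTi library and 769 to 1097 in replicates 2 to 4, and did not pass (-0.78 ± 0.34, adjusted p 0.149).

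**Figure D4:**
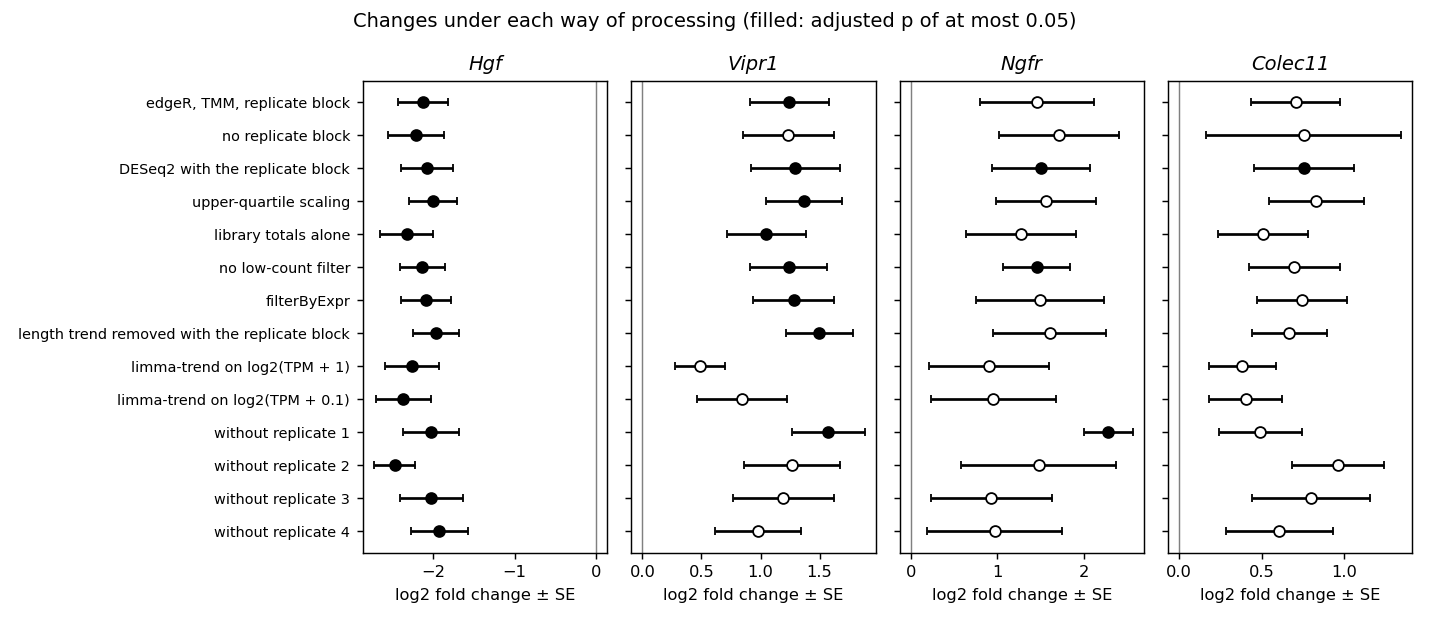
Log2 fold change with its standard error for Hgf, Vipr1, Ngfr and Colec11 under the edgeR fit with the block and 13 alternatives; filled dots have an adjusted p of at most 0.05, and each panel has its own x axis. Hgf is filled throughout, Vipr1 in 7 of the 13 alternatives, Ngfr in 3 and Colec11 in 1.

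Gfap (chromosome 11, 102778159 to 102791738) encodes the intermediate filament protein of astrocytes that also labels quiescent stellate cells in rodents. It was all but silent in these cultures. Control replicates 1 to 4 had 3, 9, 12 and 16 counts, and OGTi replicates 1 to 4 had 7, 4, 0 and 5. The pairs gave 1.24, -0.76, -4.53 and -1.35 on the log2 scale, with pair 1, which holds the OGTi library with low values for long genes, the only positive one. The log2 fold change of -1.13 ± 1.09 had a wide 95% interval of -3.56 to 1.31 (adjusted p 0.531), and it was -1.95 without pair 1 (adjusted p 0.316). Of 5 filament and linker genes related to it, 1 changed. Synm, encoding synemin, fell (2.05 to 4.08 TPM in control and 0.31 to 1.1 in OGTi, -1.92 ± 0.27, adjusted p 0.00134), in every alternative. Desmin (Des), the filament protein used to identify rodent stellate cells, was at 122 to 147 TPM in control and 62.7 to 116 in OGTi and did not pass (-0.19 ± 0.22, adjusted p 0.626).

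Cygb (chromosome 11, 116535970 to 116545406) encodes cytoglobin, a stellate cell globin that handles oxygen and nitric oxide. It had 362, 308, 248 and 134 scaled counts in control replicates 1 to 4 and 353, 159, 184 and 403 in OGTi replicates 1 to 4. The groups overlapped, and the pairs disagreed, with -0.04, -0.95, -0.43 and 1.59 on the log2 scale. Replicate 4 was the lowest of the controls and the highest of the OGTi libraries. The log2 fold change was 0.02 ± 0.39 (95% interval -0.84 to 0.88, adjusted p 0.98), and it was -0.46 without pair 4 (adjusted p 0.372). Of 5 genes of globins and their reductases, 0 passed in the edgeR fit with the block. The 1 with an unadjusted p under 0.05 was Mb, encoding myoglobin, which had 0 counts in all control libraries and 5, 2, 10 and 6 in OGTi replicates 1 to 4 (adjusted p 0.0741). DESeq2, edgeR without the block and edgeR with the length trend removed each called 1 gene of the list higher, as did limma on TPM, which with 1 added also called 1 lower. Cyb5r3, which reduces cytoglobin, stood at 722 to 1023 TPM in control and 628 to 1133 in OGTi and did not pass (adjusted p 0.217).

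Apart from Ecm1 and Rgs5, the spread of the markers between control cultures was large. Of the 9 with a mean of at least 50 counts, 7 had a control coefficient of variation above the 80th percentile of the 11948 genes compared, from 37.2% for Cygb to 124% for Adamtsl2. In control, the highest library was over the lowest by a factor of 4.62 for Ngfr, 4.02 for Colec11, 3.11 for Hgf and 2.88 for Reln. Of these, Hgf, Reln and Colec11 were highest in replicates 3 and 4, as was Adamtsl2, whereas Ngfr and Cygb were highest in replicate 1. The level of Lyz2, a macrophage gene, also differed between cultures, with 13.7, 26.5, 138 and 63.3 TPM in control replicates 1 to 4. Ptprc, which marks all leukocytes, was 0.05, 0.03, 0.08 and 0.1 TPM in them. Of other macrophage markers, Csf1r (3.74, 3.58, 6.66 and 5.59 TPM) and Adgre1 (0, 0, 0.96 and 0.16 TPM) were highest in replicates 3 and 4. Cd68 went the other way (32.3, 24.7, 23.1 and 11 TPM). The part of other cells in the spread of the markers was not tested.

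Other genes known from stellate cells were examined beside the 10 markers, and more of them fell than rose. Of 22, 8 were called lower and 2 higher, with a median log2 fold change of -0.39. Over all genes tested, 10.2% were called lower and 8.13% higher, with a median of 0.01. The list was chosen with earlier results of these data known, so these counts describe it and test nothing. The 4 lower genes of smallest adjusted p were Bmp5, Pdgfrb, Lrat and Pdgfra. Lrat, the enzyme that esterifies retinol for storage, went from 6.51, 9.34, 18 and 14.5 TPM in control replicates 1 to 4 to 2.3, 2.75, 2.5 and 2.94 in OGTi, a log2 fold change of -1.78 ± 0.28 (adjusted p 0.00232). Bmp5, a secreted BMP ligand, fell as well (-2.44 ± 0.25, adjusted p 0.000317), and the PDGF receptors Pdgfrb and Pdgfra fell by 1.68 and 1.95 (adjusted p 0.00154 and 0.00655). These 4 were called in all 13 alternatives. Plin2, Tcf21 and Pth1r were among the other lower genes, and were called in 13, 8 and 8 of 13 alternatives. Angptl6, a secreted angiopoietin-like factor, rose (2.62 to 7.83 TPM in control and 14.3 to 19.9 in OGTi, 2.39 ± 0.38, adjusted p 0.0024), and the other higher gene was Fcna. Without replicate 3 and without replicate 4, and also with no replicate block, the calls in this list were 5 lower and 1 higher in each case, and with upper-quartile scaling 5 lower and 2 higher.

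**Figure D5:**
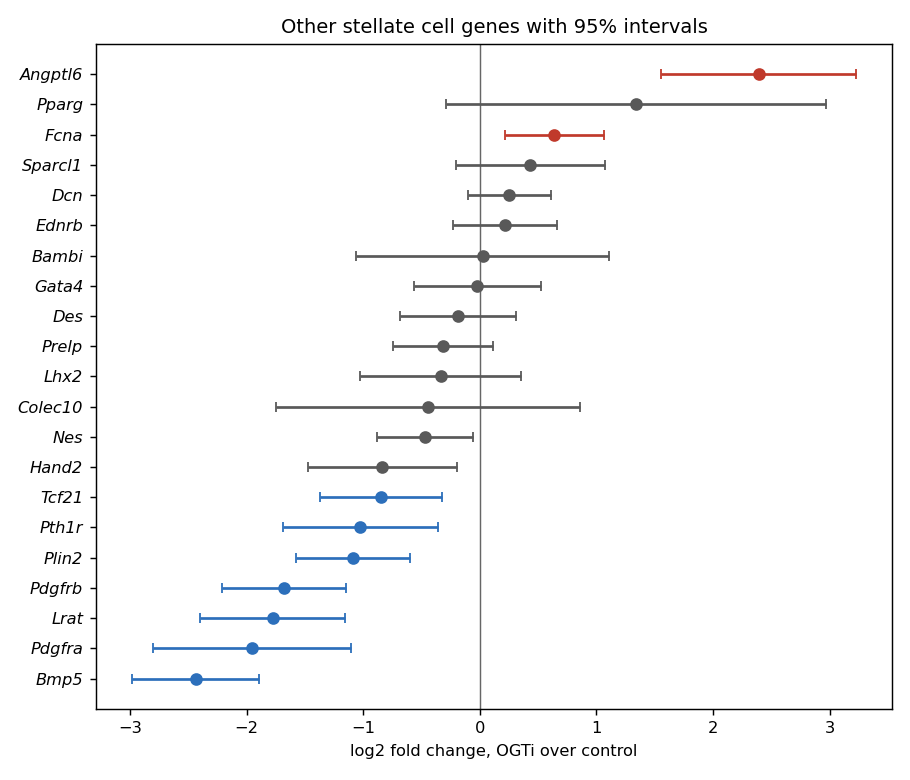
Log2 fold change with its 95% interval for other stellate cell genes, ordered by size; red is called higher, blue called lower and grey not called. Angptl6 and Fcna are red, and Bmp5, Pdgfra, Lrat and Pdgfrb have the most negative values.

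Of 19 myofibroblast genes, 0 were called in either direction in the edgeR fit with the block, and their median log2 fold change was -0.19. Acta2, the contractile actin of activated cells, was at 1556 to 2587 TPM in control and 1310.1 to 2179 in OGTi (0.05 ± 0.25, adjusted p 0.915), and Col1a1 did not pass either (-0.85 ± 0.30, adjusted p 0.0761). At an unadjusted p under 0.05, 7 of the 19 were included. Col1a1, Col1a2, Col3a1, Col5a1 and Tpm1 were lower, and Tagln and Timp1 higher. Each of these collagen genes was lower in all 4 pairs, and Tagln and Timp1 were higher in all 4. Col1a1 was called lower in 2 of 13 alternatives. With DESeq2 1 gene of the list was called higher and 1 lower. Upper-quartile scaling and filterByExpr each gave 1 called higher. Library totals alone gave 4 called lower, limma on TPM 3, no low-count filter 2, leaving out pair 1 also 2, and removing the length trend 1.

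Markers of other cells were summed to see what else the cultures held, and several lists had both abundant genes and defining genes at or near 0. The 8 Schwann cell and glial markers, which bear on Ngfr, Gfap and Reln, summed to 1.12 to 4.37 TPM in control and 1.1 to 3.12 in OGTi. Most of this was Aldh1l1 (0.85 to 4.15 TPM in control), while Sox10 was at 0 except for 0.09 TPM in OGTi replicate 3 and Foxd3 was at 0 throughout. S100b was called higher, also in 8 of 12 alternatives, with 0 to 0.1 TPM in control and 0.19 to 0.51 in OGTi. The 8 smooth muscle and pericyte markers, which bear on Rgs5, summed to 29.2 to 134 and 17.6 to 91 TPM. Cnn1 made up much of that sum, 7 were tested and 0 called in the edgeR fit with the block (3 had an unadjusted p under 0.05), and Cspg4 did not exceed 0.01 TPM. Of this list, 3 were called lower with library totals alone, 2 with no low-count filter, 1 with DESeq2, 1 without pair 1, and 1 or 2 with limma on TPM with 1 or 0.1 added. The 9 endothelial markers summed to 1.79 to 3.35 TPM in control and 0.36 to 1.27 in OGTi, with Tek called lower (also in 13 of 13 alternatives), Lyve1 called lower (in 8 of 13, adjusted p up to 0.103) and Cdh5 at no more than 0.08 TPM. The 8 hepatocyte markers, of which Hnf4a and Tat were at 0, summed to at most 1.7 TPM, with Cyp2e1 higher in OGTi (0.36 to 1.2 TPM). The 8 macrophage markers summed to 62 to 184 and 92.7 to 232 TPM, mostly Lyz2, Cd68, which rose, and Cd14, which fell in a call that held in 9 of 13 alternatives. Adgre1 reached 0.96 TPM in control replicate 3, and Clec4f did not exceed 0.27 TPM. The 10 mesothelial and portal fibroblast markers summed to 69.2 to 188 and 8.53 to 71.1 TPM, mostly Fbln2, which fell, with Krt8 at up to 12.3 TPM. Wt1, Thy1 and Eln stayed at or under 0.47 TPM. The 6 cholangiocyte markers included Spp1 and Krt19, with Krt19 lower (in 6 of 13 alternatives, adjusted p up to 0.144), Sox9 higher (in 13 of 13) and Epcam at no more than 0.79 TPM, and summed to 307 to 654 and 128 to 563 TPM. The part of these genes in the changes of Hgf and Vipr1 was not tested.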

How the data were processed

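Libraries of oligo-dT enriched RNA from 8 cultures kept strand. The submitters' processing notes name Bowtie2 2.3.5.1, RSEM 1.3.1 and the build GRCm39 (mm39). The deposited tables, 1 per library, give expected counts per gene and TPM. A deposited table of whole-number counts, normalized counts and the authors' DESeq2 1.36.0 fold changes and p-values was not used. Here the expected counts were rounded and fitted in edgeR 4.0.16 (R 4.3.3) on genes with at least 10 counts in total, TMM scaling, glmQLFit and glmQLFTest, a block for replicate number, and Benjamini-Hochberg adjustment over 19963 genes, with calls at an adjusted p of at most 0.05. A 95% interval is the log2 fold change ± its standard error times the t quantile.

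The study's methods pair treated and control samples, and deviations of same-numbered libraries correlated across genes by 0.160, 0.224, 0.105 and 0.318 for replicates 1 to 4. Libraries of different number correlated by -0.312 to 0.208. OGTi replicate 1 correlated more with control replicate 2 (0.208) than with control replicate 1. Control replicate 3 correlated more with OGTi replicate 4 (0.122) than with OGTi replicate 3. For replicates 1 and 3 the pairing thus rests on the study's methods. The depth of 30068876 to 37372420 counts left Gfap as the marker with the fewest counts. Intervals cover the spread of the change between pairs. Level differences between cultures are taken up by the block and are not covered. Members and lists were chosen with earlier results of these data known. All 10 markers were named, with called genes of each related list (up to 4 in each direction by adjusted p, others by name only), defining genes, and markers of other cells. Bdnf, Masp1, Mb, Cyb5r3, Dab1, Vip, Adcyap1 and the markers near 0 were added after their values were seen. Alternatives were DESeq2 1.42.0, limma 3.58.1 on log2(TPM + 1) or log2(TPM + 0.1), other scalings and filters, no block, length trend removed by loess, and each pair left out. The fits were tested on simulated data. Promoters were read from GRCm39 with GENCODE vM39. The markers were matched by symbol. Some genes of the lists are counted but not reported here.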

Additional observations from a re-analysis of the deposited data

Results flagged for a closer look

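Vipr1 reached 322 scaled counts in the fourth OGTi library and 146 to 166 in replicates 1 to 3, a sample far from the rest of its group. It was the 1 such case among 20 groups of values examined, 10 markers in 2 groups, and chance gives about 1 in 20. Without replicate 4 the log2 fold change of Vipr1 was 0.98 (edgeR adjusted p 0.129). No cause was tested.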

How the results depend on the processing

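Hgf was called lower in all 13 alternatives, so the count of markers called lower was 1 throughout. The count called higher, 1 in the edgeR fit with the block, was 0 with no replicate block, 3 with DESeq2 (Vipr1, Ngfr and Colec11), 2 with no low-count filter, 0 with limma on log2(TPM + 1) or log2(TPM + 0.1), and 0 to 2 with 1 pair left out. The median log2 fold change of the markers, 0.18, went to 0.31 with upper-quartile scaling, -0.017 with library totals, 0.37 with filterByExpr, which dropped Gfap, and -0.053 and -0.15 with limma on TPM with 1 or 0.1 added. With 1 pair left out it ranged from 0.19 to 0.37. Over all genes, limma on TPM called 3456 or 3473 genes lower (1 or 0.1 added), against 2043, and leaving out 1 pair gave 843 to 1433 higher and 1062 to 1744 lower genes, with fewer samples in each fit. The cause of the other shifts was not tested. Of 129 values of single markers under the alternatives, 119 kept their side of the threshold, 4 passed it and 6 fell short of it, the last all for Vipr1. Reln, Ecm1, Adamtsl2, Cygb and Rgs5, none of them called, changed sign in 4, 2, 2, 4 and 1 alternatives. The replicate block changed 1 call among the markers, that of Vipr1, whose adjusted p was 0.0527 without the pairing. With counts of 0 to 16 per library, Gfap was the marker with the least depth behind it.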
